A study of Homo sapiens with 32 samples.

Results

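SK-MEL-147, a human melanoma cell line, was compared with and without INK128, an ATP-competitive inhibitor of the kinase mTOR. The comparison used 8 of the series' 32 samples, chosen by their titles, with 4 INK128 libraries and 4 untreated libraries. INK128 was given at 100 nM and renewed at each medium change, every 3 days, and RNA was collected on day 7. By the labels, the drug put the cells into a state like diapause, the dormancy of early embryos. The untreated libraries came from the same line, grown in the same medium, also at day 7. The labels of every sample name SK-MEL-147, while the series description names SK-Mel-103 as the melanoma line given INK128, and the sample labels were followed. For reference, 4 SK-MEL-147 libraries came from cells given 100 nM doxorubicin and 4 from cells given 1 uM palbociclib, both withdrawn after 72 h and described as senescent, and A549 lung adenocarcinoma cells were given 200 nM INK128. Nothing in the labels ties the replicates to separate cultures, so p-values measure only the spread between these samples, and a single line shows nothing about other melanomas.

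mTOR is a kinase that reads nutrients and growth factors and works in a pair of complexes, built around RPTOR and RICTOR. The first complex drives protein synthesis through the 4E-BP proteins and S6 kinases, promotes the making of ribosomes, lipids and nucleotides, and holds back autophagy and lysosome genes. The second complex activates AKT, which keeps FOXO transcription factors out of the nucleus. mRNAs of ribosomal proteins and of several translation factors begin with a run of pyrimidines (a terminal oligopyrimidine, or TOP, start), through which their translation depends on the first complex.

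The starts of 7 such mRNAs are shown because their genes bear the results on translation given below, and the capitals mark the unbroken pyrimidine run. The windows are those of RefSeq on GRCh38.p14, read 5′ to 3′.
RPL12: CCTCTCggctttcggctcgg
RPS18: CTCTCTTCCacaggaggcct
RPL13: CTTTCCgctcggctgttttc
EEF1A1: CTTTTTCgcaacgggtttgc
TPT1: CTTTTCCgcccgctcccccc
EEF2: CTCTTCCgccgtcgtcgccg
NPM1: CTTTCCCTggtgtgattccg
Such a start (C followed by at least 4 pyrimidines) was present in 48 of the 64 ribosomal protein genes with a window (75%), in 13 of 14 genes of the list of TOP translation factors (92.86%) and in 5.142% of all 27305 genes with a window. Of the 7 genes shown, 6 rose with INK128 and NPM1 fell. Most named genes, from which these were taken, had to be called to be named, so this count is no result about the start. Of the 13 TOP translation factor genes with the start, 4 were called higher and 1 lower. Among all genes with a window, it was found in 9.014% of those called higher, 6.49% of those called lower and 7.387% of those tested.

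A further 3 stretches are shown for motifs found in some or most genes of their groups, with the motifs in capitals.
GAA: ctcccgccggTCACGTGAcccgcctctg
CDC20: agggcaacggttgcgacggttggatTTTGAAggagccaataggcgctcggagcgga
HMGCS1: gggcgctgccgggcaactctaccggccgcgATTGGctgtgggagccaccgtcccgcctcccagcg
The stretch of GAA (chr17:80101539-80101566, plus strand) holds the CLEAR box TCACGTGA, 32 bases before the start. That box stood in 6 of 29 lysosomal genes with a window (20.69%) and in 1.036% of all genes with a window, both strands searched. The stretch of CDC20 (chr1:43358891-43358946, plus strand) holds the CHR element TTTGAA of cell cycle genes, which was found in 16 of 28 mitotic genes (57.14%), in 0 of 31 replication genes and in 16.05% of all genes. The stretch of HMGCS1 (chr5:43313478-43313542, minus strand) holds a CCAAT box on its other strand, present in 16 of 18 cholesterol genes (88.89%) and in 37% of all genes. These matches describe the windows and show no binding.

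Depth was 25610444 to 32407057 counts a library. Of 60728 genes, 18516 passed the filter on low counts and were tested, and the remaining 42212 were not. INK128 library 1 stood apart from the other INK128 libraries, with an SD of log2 ratios of 0.517 to 0.577 against each, compared with 0.214 to 0.33 among libraries 2 to 4. Its mitochondrial transcripts made up 5.06% of counts, against 3.19% to 3.27% in the other 3. Values without it are given where a call depends on it. SOX10 and PAX3, which specify melanocytes, and MITF, their lineage regulator, were detected in every library, whereas the pigment cell genes TYR and MLANA stood at 0 to 0.121 and at 0 to 0.0377 CPM (counts scaled to a common library total). Leukocyte markers summed to 0.498 to 1.88 CPM in untreated libraries and 1.49 to 1.77 with INK128, and fibroblast markers to 17 to 24.9 and 8.02 to 25 CPM. Epithelial markers summed to 165 to 200 CPM untreated and 176 to 217 CPM with INK128, carried mainly by CLDN4 and KRT18, with 3 of the 9 tested higher and 2 lower and with EPCAM and CDH1 at or near 0. The part of these markers in the results was not tested. In bulk RNA, fewer cells of a type and less RNA per cell cannot be told apart.

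INK128 changed most of the genes tested, with rises and falls nearly balanced. Genes for ribosomal proteins, FOXO targets, lysosomal enzymes and p53 targets were higher, and genes for mitosis, DNA replication, cholesterol, serine and nucleotide synthesis, ribosome assembly and protein folding were lower. By edgeR's quasi-likelihood test with a Benjamini-Hochberg adjusted p under 0.05, 5521 genes were called higher (29.8% of those tested) and 5352 lower (28.9%), or 58.7% in either direction. The median log2 fold change over all genes was 0.03. A change of more than 1 on the log2 scale was called for 2963 genes in the upward direction (16%) and 1790 downward (9.67%), or 25.7% together. The 4 libraries of one group lay wholly above or below those of the other for 52.5% of all genes tested and for 84.74% of the called ones. These percentages are the background for every gene group below. Protein-coding genes with a mean of 20 CPM or more over the 16 libraries of the line differed from it. Of these, 22.89% were called higher and 40.93% lower, and lists rich in such genes are better set against those shares. Gene levels are CPM on TMM-scaled totals, given in the order of libraries 1 to 4 of each group.

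**Figure D1:**
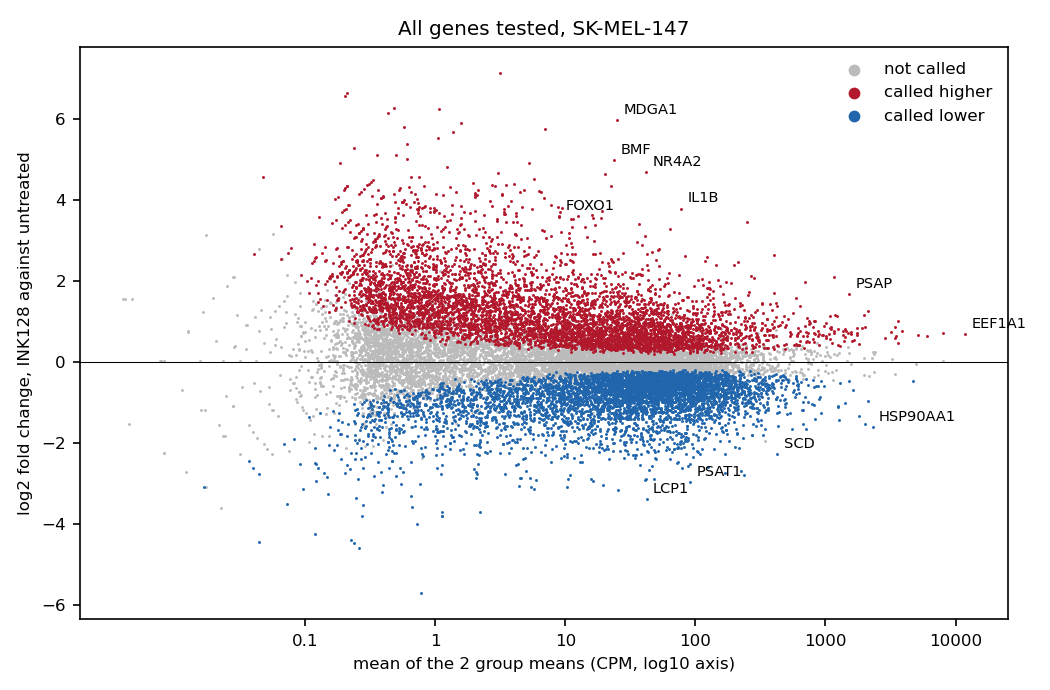
Log2 fold change of INK128 against untreated (vertical axis) by mean level in CPM (horizontal log10 axis) for the 18516 genes tested in SK-MEL-147, each point 1 gene, red where called higher, blue where called lower and grey otherwise. Rises (5521) and falls (5352) are about as many, and the largest rises lie among genes of low level while EEF1A1 and HSP90AA1 stand out among the most abundant.

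In the mTOR pathway itself, genes moved in both directions. Of 43 genes of the pathway tested, 18 rose and 11 fell, with a median log2 fold change of 0.29. DDIT4, a stress-induced inhibitor that acts through TSC2, stood at 15.6, 16.1, 12.9 and 24.8 CPM in untreated libraries and at 27.2, 74.9, 54.1 and 53.7 CPM with INK128. The groups did not overlap, and INK128 library 1 was the lowest treated one. The log2 fold change of DDIT4 was 1.60 (SE 0.28, adjusted p = 0.00016). GRB10, an adaptor that dampens insulin receptor signalling, rose by 2.01 (SE 0.29), PDCD4, a repressor of the helicase eIF4A, by 1.32 (SE 0.20), and SESN2, an amino acid sensor, by 0.82 (SE 0.21), the last with groups that overlapped. DEPTOR, which binds and inhibits both complexes, rose by 1.66 (SE 0.42, adjusted p = 0.00284), at levels of only 0.318 to 0.498 CPM untreated and 0.792 to 1.81 CPM treated.

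EIF4EBP1, the translation repressor that mTOR inactivates, fell. Its untreated libraries held 136, 192, 197 and 179 CPM and its treated ones 104, 77.9, 89.1 and 77.9 CPM. Every treated library lay below every untreated one, and the log2 fold change was -1.01 (SE 0.18, adjusted p = 0.000135). EIF4E, the cap-binding protein that EIF4EBP1 restrains, fell by 1.07 (SE 0.12) and FNIP2, a partner of folliculin, by 1.05 (SE 0.18). The kinase gene MTOR itself fell by 0.33 (SE 0.11, adjusted p = 0.0198), a call that was lost without INK128 library 1 (adjusted p = 0.0664). RPTOR was not called, at 0.06 (SE 0.14, adjusted p = 0.75), and its INK128 library 1 lay lowest at 43.1 CPM against 70.1 to 72.1 CPM in the others. RICTOR was also not called, at 0.42 (SE 0.18, adjusted p = 0.0558), though its 4 treated libraries (60.8 to 72.9 CPM) lay above the 4 untreated ones (42.3 to 55.3 CPM). Its adjusted p was 0.0149 with replicate pairs, 0.00687 in a fit of the 8 libraries alone, and up to 0.162 in the other alternatives.

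FOXO targets and genes of insulin feedback moved upward as a group: 17 of 27 tested rose, none fell, and the median was 0.91. With 1 library left out that median was 0.65 to 1.02. FOXO1 (ENSG00000150907, chromosome 13, 40469953 to 40666597, minus strand, GRCh38), a transcription factor that AKT excludes from the nucleus, stood at 1.19, 1.21, 1.39 and 1.72 CPM untreated and at 11.1, 26.8, 13.9 and 14.6 CPM with INK128. All treated libraries were above all untreated ones, and the log2 fold change was 3.59 (SE 0.36, adjusted p = 7.43e-07), or 12-fold. BMF, a pro-apoptotic member of the BCL2 family, went from 1.7, 1.14, 1.33 and 1.59 CPM to 37.1, 66.7, 38.4 and 41.6 CPM. Its groups were far apart, with a log2 fold change of 4.99 (SE 0.33, adjusted p = 3.4e-08). TXNIP, which restrains glucose uptake and binds thioredoxin, rose from 28.8 to 43.7 CPM over the untreated libraries to 165 to 267 CPM, a log2 fold change of 2.60 (SE 0.20). PIK3IP1, an inhibitor of PI3 kinase, rose by 2.52 (SE 0.30) from 0.178 to 0.507 CPM to 1.2 to 2.15 CPM. IRS2, the insulin receptor substrate, was not called at 0.36 (SE 0.20, adjusted p = 0.132). The forkhead motif GTAAACA was found in 1 of the 27 genes of the list with a window (3.704%), TXNIP, and in 3.662% of all genes with one.

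**Figure D2:**
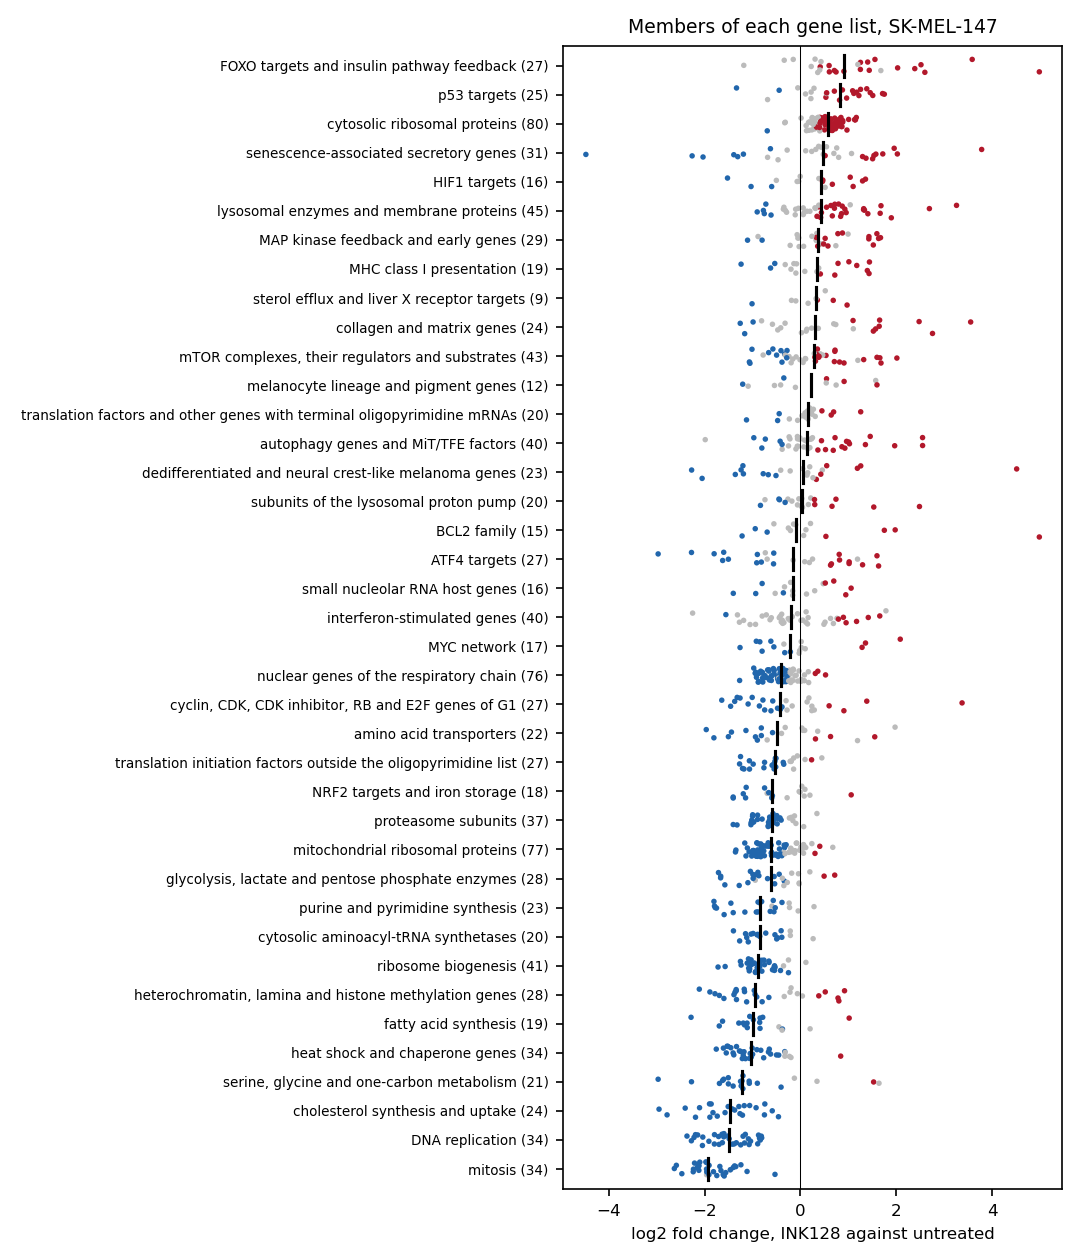
Log2 fold change of INK128 against untreated for every tested member of 39 gene lists in SK-MEL-147 (horizontal axis), 1 point per gene, red where called higher, blue where called lower and grey otherwise, with a black bar at each list's median and the number tested in brackets. With all libraries, FOXO targets have the highest median (0.91) and mitosis the lowest (-1.93). The p53 targets stand above FOXO targets without INK128 library 2 (0.71 against 0.65) and without untreated library 1 (1.08 against 0.94). They also do so without untreated library 2 (0.89 against 0.85).

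Genes of the protein synthesis machinery split. Cytosolic ribosomal proteins were higher, with 54 of 80 called upward, 1 downward (RPL17) and a median of 0.58, while genes that assemble ribosomes were lower, with 38 of 41 called downward, none upward and a median of -0.88. RPL12, a protein of the large subunit, stood at 564, 870, 764 and 770 CPM untreated and at 2491, 1509, 1230 and 1347 CPM with INK128. The groups did not overlap, and library 1 held both the lowest untreated and the highest treated value. The log2 fold change was 1.15 (SE 0.22, adjusted p = 0.00029) with all libraries and 0.87 without INK128 library 1. RPS18, a small subunit protein, rose by 1.17 (SE 0.18) and RPL13 by 1.13 (SE 0.14). Without INK128 library 1, 44 ribosomal protein genes were called higher and the median was 0.39. Reads of these genes can be shared with their many pseudogenes, and those of RPL17 with a readthrough gene, so single values are uncertain. Among ribosomal protein genes with a TOP start 33 of 48 were called higher (median 0.60), and without one 11 of 16 (median 0.50).

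The TOP translation factors did not move as one. Of 20 tested, 4 rose, 3 fell and 13 were not called, with a median of 0.15. Both counts lie below the shares over all genes, 29.8% higher and 28.9% lower. The median was 0.08 without untreated library 1, 0.09 without INK128 library 1, 0.24 without untreated library 2 and 0.25 without INK128 library 3. EEF1A1, the factor that carries aminoacyl-tRNAs to the ribosome, gained the most CPM of the nuclear protein-coding genes called, from 7254, 10052, 9244 and 9865 to 14798, 15790, 13941 and 14325. These groups did not overlap, and the log2 fold change was 0.69 (SE 0.16, adjusted p = 0.00146). TPT1, a small tumour-associated protein, rose by 1.26 (SE 0.17) and EEF2, the translocation factor, by 0.64 (SE 0.15). NPM1, a nucleolar chaperone with the same kind of start, held 1282, 1961, 1763 and 1897 CPM untreated and 1153, 710, 628 and 672 CPM treated. Every treated value was below every untreated one, and NPM1 fell by 1.13 on the log2 scale (SE 0.19, adjusted p = 9.33e-05). Of 16 host genes of small nucleolar RNAs 4 were higher and 4 lower, close to the shares of 29.8% and 28.9% over all genes. GAS5 rose by 1.06 (SE 0.19), SNHG29 by 0.70 (SE 0.16), and DANCR fell by 1.40 (SE 0.19).

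Within ribosome assembly, LYAR, a nucleolar growth regulator, fell from 63.8 to 87.3 CPM to 17.7 to 33 CPM, a log2 fold change of -1.72 (SE 0.18). PNO1, needed for the small subunit, stood at 69.7, 87, 76.5 and 77.9 CPM untreated and 23.3, 24.9, 28.1 and 28.4 CPM treated. Its groups did not overlap and its log2 fold change was -1.57 (SE 0.10, adjusted p = 2.31e-08). DKC1, the pseudouridine synthase of box H/ACA particles, fell by 1.25 (SE 0.12), and POLR1B, the second subunit of RNA polymerase I, by 0.42 (SE 0.11). Translation initiation factors outside the TOP list followed the same direction, with 18 of 27 lower, 1 higher and a median of -0.52, among them EIF2S2, a subunit of the initiator tRNA carrier (-1.27, SE 0.11) and EIF2B3, a subunit of its exchange factor (-1.25, SE 0.14). All 17 called cytosolic aminoacyl-tRNA synthetases of 20 tested were lower (median -0.85), while replicate pairs added 1 higher, with FARSB, which charges phenylalanine, at -1.40 (SE 0.12) and GARS1, which charges glycine, at -1.27 (SE 0.11).

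Genes of lipid synthesis fell almost throughout. All 24 tested genes of cholesterol synthesis and uptake were lower, with a median of -1.47. HMGCS1, the cytosolic HMG-CoA synthase, stood at 97.4, 172, 130 and 129 CPM untreated and at 27.9, 35.4, 39.7 and 42.1 CPM with INK128. The groups were well apart, and the log2 fold change was -1.86 (SE 0.16, adjusted p = 1.8e-07). ACAT2, which condenses acetyl-CoA at the start of the path, fell by 2.41 (SE 0.21). Of 19 fatty acid genes 15 fell and 1 rose, with a median of -0.98. SCD, the stearoyl-CoA desaturase, held 456, 893, 768 and 718 CPM untreated and 138, 195, 127 and 123 CPM treated, without overlap. Its log2 fold change was -2.28 (SE 0.24, adjusted p = 1.43e-06). ACACA, the acetyl-CoA carboxylase, fell by 1.69 (SE 0.16), FASN, the fatty acid synthase, by 1.11 (SE 0.17), and ELOVL6, an elongase, by 1.63 (SE 0.17), while ACSL1, which activates long-chain fatty acids, rose by 1.02 (SE 0.19). Of 9 genes of sterol efflux 3 rose and 1 fell. The classic sterol regulatory element TCACCCCAC was present in 1 of 18 cholesterol genes with a window (5.556%) and in 0.4505% of all genes with one.

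Genes of amino acid and nucleotide synthesis fell along with those of lipid synthesis. Of 21 genes of serine, glycine and one-carbon metabolism 17 fell and 1 rose, or 2 with replicate pairs in the fit (median -1.22). PSAT1 (ENSG00000135069, chromosome 9, 78297143 to 78330093, plus strand, GRCh38), the aminotransferase of the serine path, stood at 135, 195, 152 and 162 CPM untreated and at 22, 16.2, 23.5 and 20.4 CPM treated. No library of one group came near the other, and the log2 fold change was -2.97 (SE 0.19, adjusted p = 2.31e-08), or 7.84-fold lower. MTHFD2, a mitochondrial folate enzyme, fell by 2.27 (SE 0.17), PHGDH, the first enzyme of the serine path, by 1.62 (SE 0.23) and SHMT2, the mitochondrial serine hydroxymethyltransferase, by 1.22 (SE 0.11). The 18 of 23 purine and pyrimidine genes that were called all fell (median -0.85), with PPAT, the first committed enzyme of purine synthesis, at -1.81 (SE 0.17) and RRM1, the large subunit of ribonucleotide reductase, at -1.78 (SE 0.20). RRM2, the small subunit, was lower by 1.79 (SE 0.65, adjusted p = 0.0265), a call lost without INK128 library 1 (adjusted p = 0.0581).

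ATF4 targets, which include several of these enzymes, were divided, with 9 of 27 higher and 11 lower. The higher ones included ATF3, a stress transcription factor (1.63, SE 0.39, groups overlapping), and VEGFA, the vascular growth factor (1.30, SE 0.36). ASNS, the asparagine synthetase, was barely expressed in these cells, at 0.507 to 0.854 CPM untreated and 0.497 to 0.942 CPM treated, and was not called (0.19, SE 0.31, adjusted p = 0.626). Amino acid transporters showed 10 falls and 3 rises among 22, or 5 rises with replicate pairs, with SLC1A5, the neutral amino acid carrier, at -1.50 (SE 0.12) and SLC38A2, an amino acid carrier induced by starvation, at 0.63 (SE 0.17).

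Glycolytic enzymes and nuclear genes of mitochondria were mostly lower, while mRNAs of the mitochondrial genome and HIF1 targets were more often higher. Among 28 enzymes of glycolysis and the pentose phosphate path 17 fell and 2 rose (median -0.62). HK2, a hexokinase, stood at 96.3, 103, 95.8 and 87.8 CPM untreated and 27.6, 26.7, 27.6 and 34.9 CPM treated. The treated libraries were all below the untreated ones, and the log2 fold change was -1.71 (SE 0.12, adjusted p = 5.13e-08). SLC16A1, a lactate carrier, fell by 1.67 (SE 0.12) and LDHA, which makes lactate, by 1.66 (SE 0.18). Of 76 nuclear genes of the respiratory chain 50 fell and 3 rose (median -0.41), and of 77 mitochondrial ribosomal proteins 56 fell and 2 rose (median -0.61), whereas 7 of the 13 mRNAs of the mitochondrial genome were higher and none lower (median 0.42). The mitochondrial share of counts, highest in INK128 library 1, did not pass its test (exact permutation p = 0.0571). ATP5MC1, a ring subunit of ATP synthase, fell by 1.27 (SE 0.16), and MRPL13 by 1.36 (SE 0.13). Of 16 HIF1 targets 7 rose and 3 fell. Their median was 0.42, and 0.15 without INK128 library 1 and 0.20 without INK128 library 2. NDRG1, a stress-induced growth suppressor, rose by 1.10 (SE 0.20), and PDK1, which holds back pyruvate entry into mitochondria, fell by 1.03 (SE 0.15).

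Lysosomal genes rose in part: 24 of 45 were higher and 5 lower, or 8 lower with replicate pairs, with a median of 0.42. IDUA, which degrades glycosaminoglycans, stood at 2.15, 1.28, 0.777 and 0.764 CPM untreated and at 13.6, 12.6, 9.98 and 11.6 CPM with INK128. The groups did not overlap, with a log2 fold change of 3.26 (SE 0.30, adjusted p = 3.1e-07). GAA (ENSG00000171298, chromosome 17, 80101556 to 80119879, plus strand, GRCh38), the lysosomal glucosidase that breaks down glycogen, rose from 7.46, 4.8, 4.34 and 3.12 CPM to 36.3, 37.1, 26.7 and 27.7 CPM. That is 6.46-fold without overlap, a log2 fold change of 2.69 (SE 0.23, adjusted p = 2.11e-07). PSAP, the precursor of the saposins, was among the largest gains in CPM, from 565 to 929 CPM to 1973 to 3322 CPM (1.68, SE 0.28). PPT1, a thioesterase, fell by 0.90 (SE 0.12), GUSB, the beta-glucuronidase, by 0.77 (SE 0.16), and GLB1, the beta-galactosidase, was not called at -0.34 (SE 0.23, adjusted p = 0.206), though it passed with replicate pairs in the fit (adjusted p = 0.0308). Of the 6 lysosomal genes with a CLEAR box 5 were called higher (median 0.57), and of the 22 tested without one 9 were higher and 3 lower (median 0.35). Over all genes the box was found in 2.133% of those called higher and in 1.969% of those tested.

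The subunits of the lysosomal proton pump showed no common direction, with 6 of 20 higher, 4 lower and a median of 0.02 (-0.02 to 0.05 with 1 library left out). ATP6V0A2 rose by 0.74 (SE 0.13) and ATP6V0E2 fell by 0.83 (SE 0.11). Autophagy genes and their transcription factors had 15 rises and 5 falls among 40, or 8 falls with replicate pairs. GABARAPL1, which coats autophagosomes, stood at 8.75, 7.82, 4.73 and 5.06 CPM untreated and at 33.5, 45.2, 40.1 and 35.7 CPM treated. The treated libraries lay well above, with a log2 fold change of 2.55 (SE 0.20, adjusted p = 9e-08). TP53INP2, an autophagy adaptor, rose by 1.36 (SE 0.16), while ATG5 and ATG3, of the conjugation machinery, fell by 0.97 (SE 0.14) and 0.81 (SE 0.11).

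Genes of protein quality control mostly fell. All 30 called proteasome subunits of 37 tested were lower (median -0.59), and of 34 heat shock and chaperone genes 29 fell and 1 rose (median -1.04). HSP90AA1, the inducible cytosolic HSP90, lost the most CPM of the nuclear protein-coding genes called, from 2487, 3407, 3496 and 4475 to 988, 996, 1252 and 1313. The groups did not overlap, and the log2 fold change was -1.61 (SE 0.16, adjusted p = 6.6e-07). HSPH1, a nucleotide exchange factor for HSP70, fell by 1.76 (SE 0.14), DNAJA1, an HSP70 cochaperone, by 1.55 (SE 0.16), and PSMD2, a base subunit of the proteasome, by 1.40 (SE 0.12). DNAJB9, a chaperone of the endoplasmic reticulum, was the exception at 0.84 (SE 0.14). Among NRF2 targets 9 of 18 fell and 1 rose, including PRDX1, a peroxiredoxin (-1.40, SE 0.15), and GCLM, which supports glutathione synthesis (-1.40, SE 0.21).

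Genes of the dividing cell fell without being lost. All 34 replication genes were lower (median -1.50), and 32 of 34 mitotic genes (median -1.93). AURKA, a spindle kinase, stood at 95.8, 138, 162 and 152 CPM untreated and at 31.6, 20.7, 17.1 and 18.8 CPM with INK128. Its libraries did not overlap, and the log2 fold change was -2.63 (SE 0.27, adjusted p = 7.73e-07). CDC20, an activator of the anaphase ligase, fell by 2.59 (SE 0.39), BUB1, a checkpoint kinase, by 2.48 (SE 0.41), CDC6, which loads the replicative helicase, by 2.22 (SE 0.25), and GINS1, a part of that helicase, by 2.28 (SE 0.19). Both mitotic genes left uncalled, CDK1 (named after its values were seen) and the proliferation marker MKI67, had negative values. MKI67 held 476, 507, 598 and 598 CPM untreated and 132, 136, 142 and 151 CPM treated, wholly apart. Its log2 fold change of -1.96 (SE 0.92) had adjusted p = 0.0783 in the fit over all 4 groups, 0.0414 with replicate pairs and 2.28e-06 in a fit of the 8 libraries alone. The doxorubicin and palbociclib libraries, which share the estimate of spread in the first fit, held 0.754 ± 0.925 and 14.2 ± 22.7 CPM of MKI67 (SD, n = 4).

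The regulators of entry into S phase changed on both sides. Of 27 genes 15 fell and 4 rose. CDKN1C, the inhibitor p57, stood at 2.36, 2.28, 2.72 and 4.52 CPM untreated and at 29.7, 42.3, 28.4 and 23 CPM treated. This was a 10.4-fold rise without overlap, at 3.37 on the log2 scale (SE 0.26, adjusted p = 9.13e-08). CDKN1A, the inhibitor p21, rose by 1.38 (SE 0.28) from 222 to 528 CPM to 635 to 1143 CPM, and CDKN1B, the inhibitor p27, by 0.91 (SE 0.29). E2F1, which activates S phase genes, fell by 1.37 (SE 0.24) and CCNE2, a cyclin of the G1/S transition, by 1.46 (SE 0.37). CCND1, cyclin D1, was not called at 0.24 (SE 0.16, adjusted p = 0.2) and passed narrowly without INK128 library 1 (adjusted p = 0.049). In the MYC network 8 of 17 genes fell and 3 rose. MYC stood at 24.2, 41.6, 31.9 and 23.7 CPM untreated and at 16.8, 16.7, 19.7 and 16.5 CPM treated. All treated libraries were lower, and MYC fell by 0.80 (SE 0.18, adjusted p = 0.00121). MXD4 and MNT, which oppose MYC at DNA, rose by 2.08 (SE 0.19) and 1.29 (SE 0.14).

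**Figure D3:**
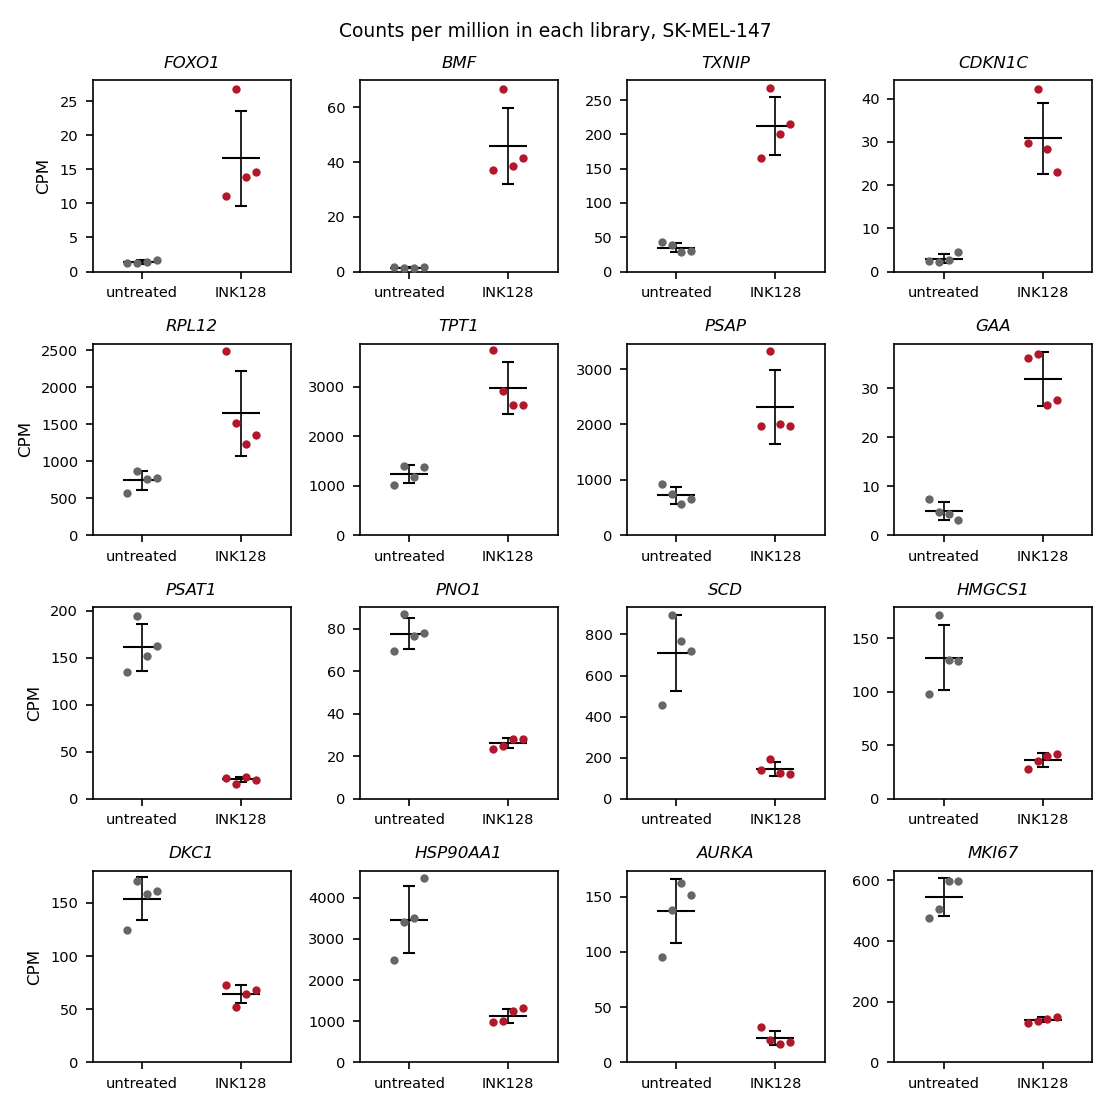
Level of 16 genes in CPM (vertical axes, each from 0) in the 4 untreated (grey) and 4 INK128 (red) SK-MEL-147 libraries, each point 1 library, with a bar at the mean and whiskers of 1 SD. In every panel the libraries of both groups are apart: FOXO1 goes from 1.19 to 1.72 CPM up to 11.1 to 26.8 CPM, and MKI67 from 476 to 598 CPM down to 132 to 151 CPM.

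p53 targets were higher as a group, with 16 of 25 called upward, 2 downward and a median of 0.82. With 1 library left out that median was 0.65 to 1.08. BBC3, a pro-apoptotic trigger, stood at 30.4, 21.6, 14.7 and 14.9 CPM untreated and at 73.8, 74.9, 59.6 and 66.5 CPM treated. The groups did not overlap, with a log2 fold change of 1.75 (SE 0.20, adjusted p = 2.67e-06). TP53I3, an oxidoreductase, rose by 1.51 (SE 0.21) and TP53INP1, a stress protein, by 1.46 (SE 0.29), while PLK2, a polo-like kinase, fell by 1.33 (SE 0.19). In the BCL2 family 4 of 15 genes rose and 3 fell: BMF and BBC3 as above, BAX, an effector of cell death, at 0.53 (SE 0.13), and, lower, BID at -1.22 (SE 0.16) and PMAIP1 at -0.94 (SE 0.12), both pro-apoptotic activators.

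Nuclear lamina and heterochromatin genes were mostly lower, with 18 of 28 down and 5 up (median -0.96). LBR, which ties heterochromatin to the inner nuclear membrane, stood at 107, 134, 148 and 139 CPM untreated and at 33.6, 29.8, 28.4 and 30.3 CPM treated. Its groups were clearly apart, with a log2 fold change of -2.11 (SE 0.12, adjusted p = 8.77e-09). TMPO, a lamina-associated protein, fell by 1.89 (SE 0.26) and LMNB1, a lamin whose loss marks senescent cells, by 1.78 (SE 0.36). KMT5B, a methyltransferase of histone H4 lysine 20, rose from 27 to 33.1 CPM to 46.4 to 56.4 CPM (0.80, SE 0.11, adjusted p = 2.13e-05). EZH1 and SETDB1, histone H3 methyltransferases, rose by 0.92 (SE 0.09) and 0.78 (SE 0.09). KMT5C, the paralog of KMT5B, was called at 0.38 (SE 0.14, adjusted p = 0.0292), and not without INK128 library 1 (adjusted p = 0.0825).

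Secreted inflammatory factors went both ways and interferon genes mostly did not pass. Among 31 senescence-associated secretory genes 10 rose and 7 fell. IL1B, the cytokine interleukin 1 beta, stood at 15.3, 14.5, 7.22 and 5.22 CPM untreated and at 171, 132, 136 and 143 CPM with INK128. It rose 13.8-fold without overlap, at 3.78 on the log2 scale (SE 0.29, adjusted p = 8.61e-08). INHBA, an activin subunit, rose by 2.02 (SE 0.48) and IGFBP6, which binds insulin-like growth factors, by 1.96 (SE 0.23), whereas PLAU, the urokinase, fell by 2.03 (SE 0.46). Of 40 interferon-stimulated genes 6 were called higher and 1 lower, below the background of 29.8% and 28.9%, and 8 were called higher and 3 lower with replicate pairs over 4 groups. Their median was -0.20, and -0.39, -0.07, -0.12 and 0.0002 without INK128 library 1, 2, 3 or 4, and it was 0.04 without untreated library 1. STAT2, a transducer of interferon signals, rose by 1.17 (SE 0.26), and SAMHD1, which degrades nucleotides, fell by 1.56 (SE 0.47). In MHC class I presentation 8 of 19 genes rose and 3 fell. HLA-E went from 79.2 to 134 CPM to 190 to 305 CPM (1.40, SE 0.24), HLA-B rose by 1.43 (SE 0.34), and TAP2, a peptide transporter, fell by 1.24 (SE 0.30). HLA genes resemble each other closely, so reads may be split between them.

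The lineage genes of the line changed in opposite ways. SOX10 (ENSG00000100146, chromosome 22, 37970686 to 37987422, minus strand, GRCh38) stood at 303, 258, 351 and 338 CPM untreated and at 527, 609, 596 and 620 CPM treated. The groups were apart and SOX10 rose by 0.91 (SE 0.17, adjusted p = 0.000201). MITF held 12.8, 12.8, 11.6 and 11 CPM untreated and 5.99, 3.81, 5.57 and 5.51 CPM treated. It fell without overlap, by 1.21 on the log2 scale (SE 0.16, adjusted p = 8.92e-06). PAX3 rose by 0.55 (SE 0.13). Of 22 melanocyte genes 12 could be tested, with 3 higher and 2 lower, and the other 10 were too low to test. Genes of the dedifferentiated melanoma state had 6 rises and 9 falls among 23. AXL, a receptor kinase of that state, was not called (0.14, SE 0.13, adjusted p = 0.394), NRG1, a ligand of ERBB receptors, fell by 2.05 (SE 0.23), TEAD4, a partner of YAP, by 1.36 (SE 0.17), and TFAP2A, a neural crest factor, rose by 1.26 (SE 0.16).

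Feedback genes of the MAP kinase pathway had 13 rises and 2 falls among 29 (median 0.36, or 0.60 without untreated library 1). DUSP4, a phosphatase of ERK, stood at 40.2, 39.6, 39.9 and 55.6 CPM untreated and at 76.4, 198, 131 and 124 CPM treated. The groups did not overlap, with a log2 fold change of 1.60 (SE 0.28, adjusted p = 0.000142). EPHA4, an ephrin receptor, rose by 1.67 (SE 0.29). Among 24 collagen and matrix genes 8 rose and 3 fell, or 6 fell with replicate pairs. COL18A1, a collagen of basement membranes, went from 59.3, 52.5, 72.6 and 76 CPM to 208, 381, 456 and 405 CPM. All treated libraries were higher, at 2.48 on the log2 scale (SE 0.21, adjusted p = 2.11e-07). COL9A3 rose by 3.55 (SE 0.71) and COL12A1 fell by 0.99 (SE 0.22).

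Most of the largest changes among protein-coding genes with at least 10 CPM in the higher group lay outside the lists above. Exceptions include BMF (4.99), of the FOXO and BCL2 lists, and SOX2, of the dedifferentiated list. Among the falls, PSAT1 (-2.97) belongs to the serine and ATF4 lists. MDGA1, a membrane protein of neural cells, stood at 0.507, 0.32, 0.907 and 1.37 CPM untreated and at 42.7, 59.7, 49.3 and 44.5 CPM with INK128. This was a 62.6-fold rise with groups far apart, a log2 fold change of 5.97 (SE 0.33, adjusted p = 8.77e-09). ATOH8, a basic helix-loop-helix factor, rose by 5.74 (SE 0.65) from 0.213 to 0.318 CPM to 2.98 to 18.9 CPM, the lowest treated value being library 1. NR4A2, an orphan nuclear receptor, rose by 4.68 (SE 0.43), with 26.4 CPM in INK128 library 1 and 96.6 to 101 CPM in the others. The remaining large rises were NTNG2 (4.91), SOX2 (4.51), TNFRSF19 (4.23), GABRG3 (4.20), GAS1 (4.05) and RASA4B (3.89), with CYP4F2 (4.63) and CYP4F3 (4.35), and the values of RASA4B, CYP4F2 and CYP4F3 may hold reads of near-identical genes.

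The largest falls were led by LCP1, an actin-bundling protein, which stood at 95.9, 79.9, 67.1 and 65.6 CPM untreated and at 7.29, 6.82, 6.89 and 8.38 CPM treated. Its groups were far apart, with a log2 fold change of -3.39 (SE 0.25, adjusted p = 7.01e-08), or 10.5-fold lower. ARG2, the mitochondrial arginase, fell by 3.05 (SE 0.17) from 26.7 to 40.4 CPM to 3.56 to 4.94 CPM. HSPA4L, an HSP110 family chaperone, fell by 2.90 (SE 0.17), CPA4, a carboxypeptidase, by 3.09 (SE 0.36), GRPR, the receptor of gastrin-releasing peptide, by 2.91 (SE 0.30), LRRC17 by 3.13 (SE 0.44) and MPP4 by 3.16 (SE 0.36). KRTAP2-1, KRTAP2-2 and KRTAP2-4, neighbouring keratin-associated genes of near-identical sequence, fell by 2.90, 2.91 and 2.89. Without INK128 library 1 these were falls by 3.55, 3.56 and 3.52. Among abundant genes the tubulins TUBA1B (-1.53, SE 0.19), TUBA1C (-1.42, SE 0.17) and TUBB (-0.97, SE 0.13) also lost many counts.

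Gene classes differed in direction. Of 2276 long non-coding genes tested 1115 rose (48.99%) and 138 fell (6.063%), with a median of 0.79, against 3568 rises and 4352 falls among 13025 protein-coding genes (27.39% and 33.41%, median -0.06). Long non-coding genes had the larger share of rises in each of the 6 ranges of level, for example 57.96% against 31.08% at 5 to 20 CPM and 43.21% against 22.89% at 20 CPM and above. Of 444 ribosomal protein pseudogenes 209 rose and 15 fell (median 0.54), whereas of 2336 other pseudogenes 452 rose and 804 fell (median -0.25). As shares of all counts, long non-coding genes went from 0.971% ± 0.0808 to 1.39% ± 0.139 (SD, n = 4) and nuclear pseudogenes from 8.29% ± 0.449 to 10.4% ± 0.683. Nuclear protein-coding genes went from 87.8% ± 0.225 to 84.3% ± 1.71. For each of these 3 shares the 2-sided exact permutation p was 0.0286, the smallest that 4 against 4 samples allow, and the adjusted p over 4 shares was 0.0381. The mitochondrial share was 2.72% ± 0.398 and 3.7% ± 0.907 (exact permutation p = 0.0571, adjusted 0.0571), with its highest value in INK128 library 1. The difference of 0.98 percentage points was 0.527 without that library.

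**Figure D4:**
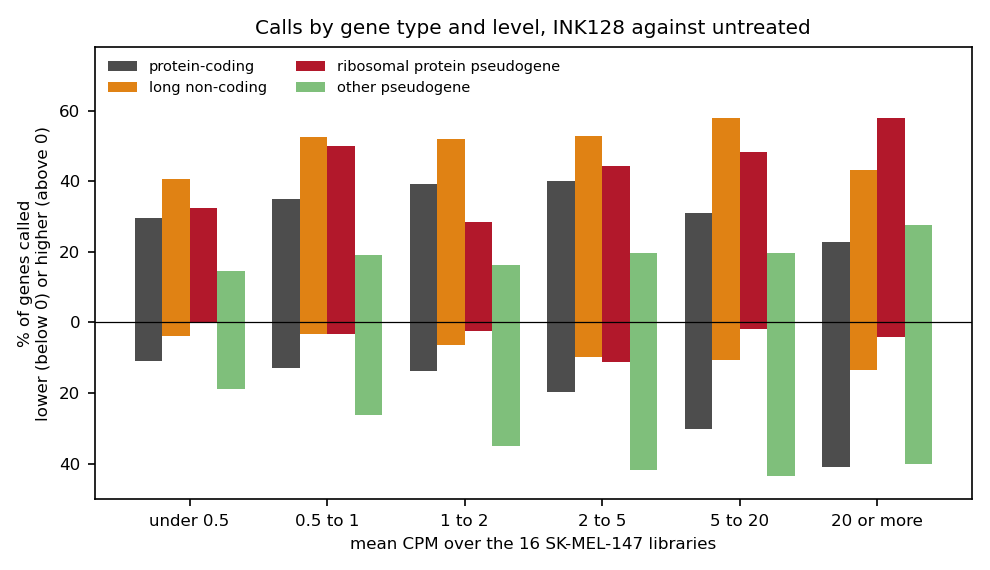
Percent of tested genes called higher (above 0) or lower (below 0) with INK128 in SK-MEL-147 by gene class (colours), in 6 ranges of mean CPM over the 16 libraries of the line (horizontal axis). Long non-coding genes show more rises than protein-coding genes in each range, 57.96% against 31.08% at 5 to 20 CPM.

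Compared directly with the senescent groups of the same line, INK128-treated cells had higher levels of genes for division, ribosomal proteins and TOP translation factors. These contrasts had 24.8% of genes higher and 24% lower against doxorubicin (48.7% together), and 26.8% and 25.8% against palbociclib (52.6% together). All 34 mitotic genes and 33 of 34 replication genes were higher than with doxorubicin, and 33 and 32 higher than with palbociclib. AURKA averaged 22.1 ± 6.56 CPM with INK128, 6.82 ± 0.499 with doxorubicin and 13.8 ± 6.04 with palbociclib (SD, n = 4), a log2 difference of 1.69 (SE 0.27, adjusted p = 8.2e-05) and 0.69 (SE 0.26, adjusted p = 0.0332). LMNB1 averaged 65.3 ± 10.1 CPM with INK128, 5.73 ± 0.949 with doxorubicin and 14 ± 11.6 with palbociclib, and was higher by 3.51 (SE 0.40) and 2.25 (SE 0.37). Ribosomal protein genes were higher than with doxorubicin in 77 of 80 cases and than with palbociclib in 72, and TOP translation factors in 18 and 16 of 20. Other translation lists did not share this: of 20 tRNA synthetases 1 was higher and 9 lower than with doxorubicin, and 1 and 11 against palbociclib. Of 77 mitochondrial ribosomal proteins 5 were higher and 22 lower, and 4 and 28. Of 27 initiation factors 3 were higher and 5 lower, and 5 and 8, and of 41 ribosome assembly genes 6 and 5, and 2 and 15.

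Lysosomal, interferon and MHC class I genes lay the other way. Of 45 lysosomal genes 36 were lower with INK128 than with doxorubicin and 37 lower than with palbociclib, with 1 higher in each. PSAP averaged 2322 ± 667 CPM with INK128, 5549 ± 2492 with doxorubicin and 5075 ± 1251 with palbociclib, and was lower by 1.26 (SE 0.28) and 1.13 (SE 0.28). Of 40 interferon-stimulated genes 35 and 36 were lower with INK128 and none higher, with median log2 differences of -2.66 and -2.67. HLA-B averaged 262 ± 59.9 CPM with INK128, 1493 ± 655 with doxorubicin and 1120 ± 445 with palbociclib, a difference of -2.51 (SE 0.35) and -2.10 (SE 0.35). GLB1, whose enzyme activity is the common stain for senescence, averaged 44.6 ± 8.26, 112 ± 44.6 and 140 ± 28.1 CPM in the same order, and was lower with INK128 by 1.33 (SE 0.23) and 1.65 (SE 0.23). Cholesterol genes differed little in number, 2 higher and 2 lower than with doxorubicin and 2 and 4 against palbociclib, of 24. IL1B was not called in either contrast, at 0.14 (SE 0.26, adjusted p = 0.67) and 0.27 (SE 0.26, adjusted p = 0.39). FOXO1 was higher with INK128 than with doxorubicin by 1.42 (SE 0.32) and than with palbociclib by 2.57 (SE 0.34).

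In A549 cells given 200 nM INK128, double the dose used here, 4010 of 19550 genes were called higher (20.5%) and 3856 lower (19.7%), together 40.2%, with n = 3. Of 16726 genes tested in both lines, 2217 were higher in both, which is 44.97% of SK-MEL-147's 4930 and 66.72% of A549's 3323. For falls, 2559 were shared, 50.03% of SK-MEL-147's 5115 and 73.14% of A549's 3499. The difference between the lines was called for 6.51% of genes as higher in SK-MEL-147 and for 5.42% as lower, together 11.9%, and since the dose differed, line and dose cannot be told apart. p53 targets differed in 15 of 25 cases upward and 1 downward: 16 rose in SK-MEL-147, whereas 2 rose and 14 fell in A549. Among the 30 genes of a panel drawn up from the pathway, 10 differed. DDIT4 rose by 1.60 in SK-MEL-147 and fell by 2.20 (SE 0.28) in A549, a difference of 3.77 (SE 0.43, adjusted p = 4.9e-06). SESN2 rose by 0.82 and, in A549, fell by 1.33 (SE 0.25), a difference of 2.13 (SE 0.35, adjusted p = 0.00025). MYC fell by 0.80 here and rose by 0.81 (SE 0.12) in A549, a difference of -1.63 (SE 0.23, adjusted p = 6.2e-05). For 20 panel genes no difference was called, among them RPL12, HMGCS1 and EIF4EBP1, for which the log2 difference was -0.27 (SE 0.34), 0.13 (SE 0.32) and -0.09 (SE 0.33). NPM1, named with the TOP factors above, fell in SK-MEL-147 and stood at -0.10 (SE 0.23) in A549, a difference of -1.05 (SE 0.30, adjusted p = 0.0239).

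**Figure D5:**
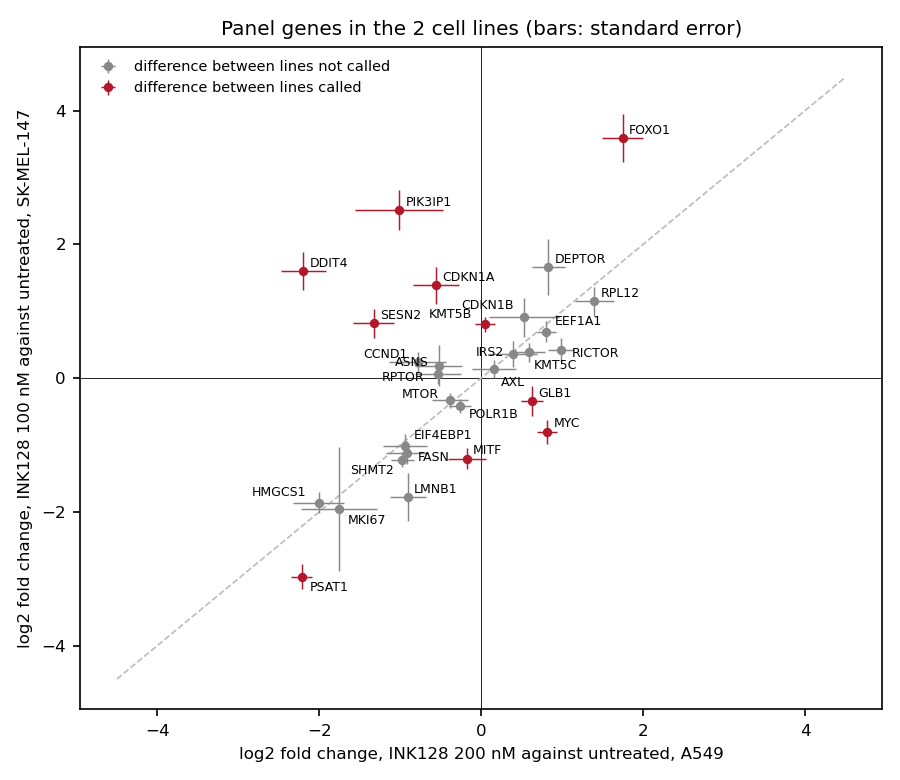
Log2 fold change of INK128 against untreated for 29 of the 30 panel genes in A549 at 200 nM (horizontal axis, n = 3) and in SK-MEL-147 at 100 nM (vertical axis, n = 4), with bars of 1 standard error, red where the difference between the lines was called, and a dashed line of equal change. Among the genes in red, DDIT4, PIK3IP1, CDKN1A and SESN2 lie above 0 in SK-MEL-147 and below 0 in A549, and MYC and GLB1 the reverse. The falls of PIK3IP1 (-1.01, SE 0.54) and CDKN1A (-0.56, SE 0.28) in A549 were not called, nor was that of GLB1 in SK-MEL-147.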

How the data were processed

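The deposited table held whole-number counts of reads per gene, which the authors made with featureCounts after alignment with STAR 2.7.10a to GRCh38.p13, per the submitters' processing notes. The annotation release and how strand and multiply matching reads were treated are not given in the sources used here, so overlapping, antisense and near-identical genes are uncertain. Libraries were made from polyadenylated RNA with a stranded kit, per the labels' protocols. Gene IDs were named for 60370 genes from a gene name table and for 60659 with GENCODE 29, which gave positions and types on GRCh38.

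Low counts were removed with filterByExpr, and the 16 SK-MEL-147 libraries in 4 groups then entered a single quasi-likelihood model in edgeR 4.0.16 (R 4.3.3) with TMM scaling, 2-sided F tests and no replicate block. All adjusted p-values for genes come from these fits, Benjamini-Hochberg adjusted over all genes tested. Each standard error was obtained from the log2 fold change and the square root of its F value. A549 libraries titled 2 and 2-2 were summed, as the labels number both replicate 2, and the difference between the lines was an interaction over all 8 groups. Exact permutation tests on count shares used scipy 1.17.1, figures were drawn with matplotlib 3.10.9, and DESeq2 1.42.0 was an alternative. Lists are described by counts and medians, with no test of the list.

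Data were simulated on 17186 genes, with 200 changed in the INK128 libraries only and all groups otherwise drawn from the untreated mean. Of genes changed 1.5, 2 and 4-fold, 37.3%, 76.1% and 98.5% were recovered, with 4.08% false calls. In the real data 58.7% of genes were called, so these rates may not hold there. Deviations from the group means correlated between libraries of the same number at 0.183, 0.179, 0.285 and 0.269, each above a set cut of 0.1. The labels give only the numbers, and the values that follow do not single out a pairing by number. The main fit had no replicate block, and fits with the numbers as replicate pairs served only as an alternative. Libraries of different numbers also correlated, at 0.192 for INK128 1 with untreated 2, 0.148 for 2 with 1, 0.405 for 3 with 4 and 0.233 for 4 with 3, so libraries 1 and 2 deviated together, as did 3 and 4.

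Named genes were a panel of 30, 12 rises and 12 falls of greatest size (protein-coding, called, 10 CPM or more in the higher group, no overlap between groups), the 6 largest gains and 6 largest losses in CPM among nuclear protein-coding genes called, and from each list no more than 3 called genes in either direction at 5 CPM or above. The samples, the panel and the 42 lists were chosen with earlier results of these data known. RefSeq windows of 250 bases before to 50 after the start (35116 windows) matched 174 of the 221 named genes. The values of 4 named genes are not reported here.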

Additional observations from a re-analysis of the deposited data

Results flagged for a closer look

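In 12 of 134 groups of 4 libraries examined, 1 library lay far from the other 3, where chance gives about 1 in 20. INK128 library 1 did so for RPTOR (43.1 CPM, low), NR4A2 (26.4 CPM, low), the mitochondrial share of counts (5.06%, high) and the nuclear protein-coding share (81.7%, low). INK128 library 2 did so for BMF (66.7 CPM), SOX2 (23 CPM), RASA4B (17.6 CPM) and PSAP (3322 CPM), all high, and for LMNB1 (50.2 CPM, low). INK128 library 3 was high for SHMT2 (106 CPM) and MYC (19.7 CPM). Untreated library 2 was low for GABRG3 (0.356 CPM).

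The log2 effect of INK128 differed between SK-MEL-147 and A549, by the interaction test, in 10 of 30 panel genes. SK-MEL-147 minus A549 was 2.13 for SESN2, 3.77 for DDIT4, 1.82 for FOXO1, 3.51 for PIK3IP1, 1.92 for CDKN1A and 0.74 for KMT5B. It was -0.77 for PSAT1, -1.63 for MYC, -0.99 for GLB1 and -1.04 for MITF. Dose and line cannot be told apart.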

How the results depend on the processing

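Counts of genes called higher and lower (5521 and 5352) were 5434 and 5409 with RLE factors, 5719 and 5032 with library size alone, 5694 and 5283 with no filter, 5108 and 4624 at 1 CPM, 5382 and 5063 in the 2 groups alone, 5863 and 5502 with DESeq2, and 5032 to 5656 and 4794 to 5278 with 1 library left out. The median over all genes was 0.07 with library size alone and 0.02 with RLE. With the replicate block the counts were 6149 and 5939 over 4 groups and 5590 and 5277 over 2. Over 4 groups the block moved list counts by over 1.5 times only where a count with replicate pairs stands beside the list, and others by less, such as FOXO targets called higher from 17 to 22, mTOR pathway genes from 18 to 21 and mitotic genes called lower from 32 to 34. In 2 groups it raised interferon genes called higher to 10. Left-out libraries moved interferon genes called higher to 3 to 6 (3 without untreated library 2 or 3), melanocyte genes called higher to 3 to 5 (5 without INK128 library 2 or 3), proton pump genes called higher to 3 to 7 (3 without untreated library 3) and MYC network genes called lower to 5 to 8 (5 without untreated library 2). List counts of 3 or fewer moved by at most 2 calls with 1 library left out. No filter gave 7 melanocyte genes called higher.

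Requiring a change over 1 on the log2 scale left 2963 and 1790 genes. Counts called higher became 5 (mTOR pathway), 11 (FOXO), 5 (ribosomal proteins), 1 (TOP factors), 1 (snoRNA hosts), 0 (sterol efflux), 4 (HIF1), 9 (lysosome), 2 (proton pump), 7 (autophagy), 10 (p53), 3 (interferon), 5 (MHC class I), 1 (melanocyte) and 6 (MAP kinase). Counts called lower became 15 (ribosome assembly), 6 (initiation factors), 9 (fatty acids), 8 (nucleotides), 6 (ATF4), 6 (tRNA synthetases), 5 (amino acid transporters), 7 (glycolysis), 1 (respiratory chain), 7 (mitochondrial ribosomal proteins), 5 (proteasome), 19 (chaperones), 7 (G1 genes), 1 (MYC network) and 5 (NRF2).

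RPTOR ranged from -0.001 (without INK128 library 2) to 0.20 (without INK128 library 1), against 0.06 with all, uncalled in the last. Line differences near 0 changed sign with A549 library 2 alone for EIF4EBP1 (0.0363) and AXL (0.0712) and with 2-2 alone for IRS2 (0.109) and MKI67 (0.0061), and library 2 alone left 684 genes called lower between lines, against 1180. Of the named gene values with 1 library left out, 1685 kept call and direction, 80 lost the call, 2 gained it and 1 changed sign; under the other settings 1730 kept both, 25 lost the call and 12 gained it. The cause of these changes was not tested. Genes under about 1 CPM, such as PIK3IP1 and DEPTOR, rest on few counts.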
